A study of Rattus norvegicus with 20 samples.

Results

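Aqp1 and Aqp7 are the aquaporin genes described here, the first a water channel and the other a channel for water and glycerol. They were taken as every row of the deposited table whose only gene symbol was Aqp1 or Aqp7, which gave 1 row for each gene and so 2 of the 14557 genes tested. They were picked because their values over the 4 groups were already known, so their levels and differences are a description and carry no test. Expression was measured in the red portion of tibialis anterior, a muscle at the front of the shin whose red fibres are rich in mitochondria, from male rats on 20 Affymetrix Rat Gene 2.1 ST arrays, 5 per group. The labels describe the rats as ZDF (Zucker diabetic fatty, which are prone to diabetes) with strain Zucker for all groups, whereas the methods set lean control rats apart from ZDF rats. The groups were rosiglitazone rats, resveratrol rats, obese rats on a stock diet for 6 weeks, and lean control rats on standard chow. Food and water were freely available to all, under a reversed light cycle. No dose, length of treatment, age or genotype of the treated rats is given in the labels, and the replicates are labelled as biological. The array values are log2 after RMA, a method that corrects background, equalises the arrays and joins the probes of a transcript into 1 value. The array medians over the genes tested lay between 2.89 and 2.97, and arrays of the same group correlated at 0.980 to 0.987. Both fast and slow fibre genes gave strong signals, as skeletal muscle does, which does not check the red portion. Myh4, the myosin of the fastest fibres, averaged 11.45 in rosiglitazone and 11.40 in obese muscle, and Myh7, the slow fibre myosin, averaged 8.55 in rosiglitazone and 8.41 in obese muscle.

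Aquaporins form pores that let water cross a membrane along an osmotic gradient. Aqp1 passes water and is known from red cells and from the endothelium of capillaries, the thin vessels that supply each muscle fibre. Aqp7 belongs to the aquaglyceroporins, which also pass glycerol; in fat cells it lets out the glycerol freed when stored triglyceride is cut, it is present in capillary endothelium too, and in mouse fat cells it is known as a target of PPARgamma. Rosiglitazone activates PPARgamma, a nuclear receptor that drives fat cell genes, and resveratrol is a plant polyphenol. Aqp4, an aquaporin of the fibre membrane, had no row of its symbol alone and was not analysed here, nor was Aqp10.

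Promoter sequence is shown for Aqp1 and for Aqp3, the 1 other aquaporin that was called below. The promoter of Aqp7 was not analysed here. RefSeq places Aqp1 on rat chromosome 4, and Aqp7 and Aqp3 on chromosome 5 with 1 gene model, a pseudogene, between them. The 250 bases before each start are from the RefSeq table of build GRCr8, at chr4:85812534-85812783 on the plus strand and chr5:61040684-61040933 on the minus strand. Capitals mark TATAAA, letters looked for after the sequences had been seen, which began at position -30 relative to the start of Aqp1 and at -38 for Aqp3.
Aqp1: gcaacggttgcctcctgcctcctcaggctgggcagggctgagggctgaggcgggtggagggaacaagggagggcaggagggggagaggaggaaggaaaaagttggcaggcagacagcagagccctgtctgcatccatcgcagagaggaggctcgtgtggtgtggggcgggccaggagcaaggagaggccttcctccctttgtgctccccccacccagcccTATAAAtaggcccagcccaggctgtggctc
Aqp3: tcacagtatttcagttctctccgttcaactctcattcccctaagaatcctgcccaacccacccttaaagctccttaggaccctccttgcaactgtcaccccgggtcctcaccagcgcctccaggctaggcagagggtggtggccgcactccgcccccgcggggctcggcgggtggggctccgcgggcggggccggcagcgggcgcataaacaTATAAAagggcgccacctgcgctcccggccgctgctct
TATAAA on this strand was present in 8.06% of all 33469 such windows. The nuclear receptor letters AGGTCA, searched on both strands, were in neither sequence and in 14.1% of all windows. A direct repeat of these letters with 1 base between them and the fourth letter of each copy left free, on both strands, was likewise in neither, and in 0.368% of windows. G and C made up 65.2% of each sequence. No match says only that these letters are not in these windows.

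Aqp1 was low on every rosiglitazone array and nearly level over the other 3 groups. Its log2 values were 4.45, 4.47, 4.86, 4.65 and 4.96 in rosiglitazone muscle. They were 6.74, 6.47, 6.82, 6.87 and 6.87 with resveratrol and 7.05, 6.95, 6.76, 6.78 and 7.14 in obese muscle. Lean control muscle gave 6.80, 7.04, 6.81, 7.02 and 6.71. The highest rosiglitazone array thus lay below the lowest of the other 15 arrays, while resveratrol, obese and lean arrays overlapped.

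The group means of Aqp1 were 4.68 ± 0.23 with rosiglitazone, 6.76 ± 0.17 with resveratrol, 6.94 ± 0.17 in obese and 6.87 ± 0.15 in lean control muscle (SD, n = 5 each). Rosiglitazone minus obese was -2.26 (SE 0.12), a 4.79-fold lower value. Rosiglitazone minus resveratrol was -2.08 and rosiglitazone minus lean control -2.20, with the same SE. The remaining differences were small beside these: resveratrol minus obese -0.18, resveratrol minus lean control -0.12 and obese minus lean control 0.06, each with SE 0.12. In order of level the groups ran rosiglitazone, resveratrol, lean control and obese, and only the step above rosiglitazone was larger than the spread within groups. Over all genes tested, 1.28% did not overlap between rosiglitazone and obese muscle with the rosiglitazone arrays lower, as Aqp1 did, and 1.65% and 2.94% did so against resveratrol and lean control muscle; since the gene was chosen on these values, nothing is read from that share.

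Aqp7 ran the other way, with the highest values on the rosiglitazone arrays and more spread in obese and lean control muscle than in the other groups. Its log2 values were 6.60, 7.51, 7.04, 6.56 and 7.11 in rosiglitazone muscle. They were 5.36, 5.06, 5.19, 6.02 and 5.85 with resveratrol and 6.10, 5.91, 5.52, 5.63 and 3.71 in obese muscle. Lean control muscle gave 3.92, 5.31, 5.67, 4.67 and 4.33. The lowest rosiglitazone array was above the highest of every other group, and the other 3 groups overlapped. Obese replicate 5, at 3.71, was the lowest of all 20 arrays and stood apart from its group.

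The means of Aqp7 were 6.96 ± 0.40 with rosiglitazone, 5.50 ± 0.42 with resveratrol, 5.38 ± 0.96 in obese and 4.78 ± 0.71 in lean control muscle (SD, n = 5 each). Rosiglitazone minus obese was 1.59 (SE 0.36), a 3.01-fold higher value, and 1.17 without obese replicate 5. Rosiglitazone minus resveratrol was 1.47 and rosiglitazone minus lean control 2.18, each with SE 0.36. Resveratrol minus obese was 0.12 (SE 0.36) and became -0.29 without obese replicate 5. Obese minus lean control was 0.60 (SE 0.36), and 1.01 without that array. Resveratrol minus lean control was 0.72 (SE 0.36). Of all genes tested, 2.31% did not overlap between rosiglitazone and obese muscle with the rosiglitazone arrays higher, and 2.02% and 2.1% did so against resveratrol and lean control muscle, from which again nothing is read.

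**Figure D1:**
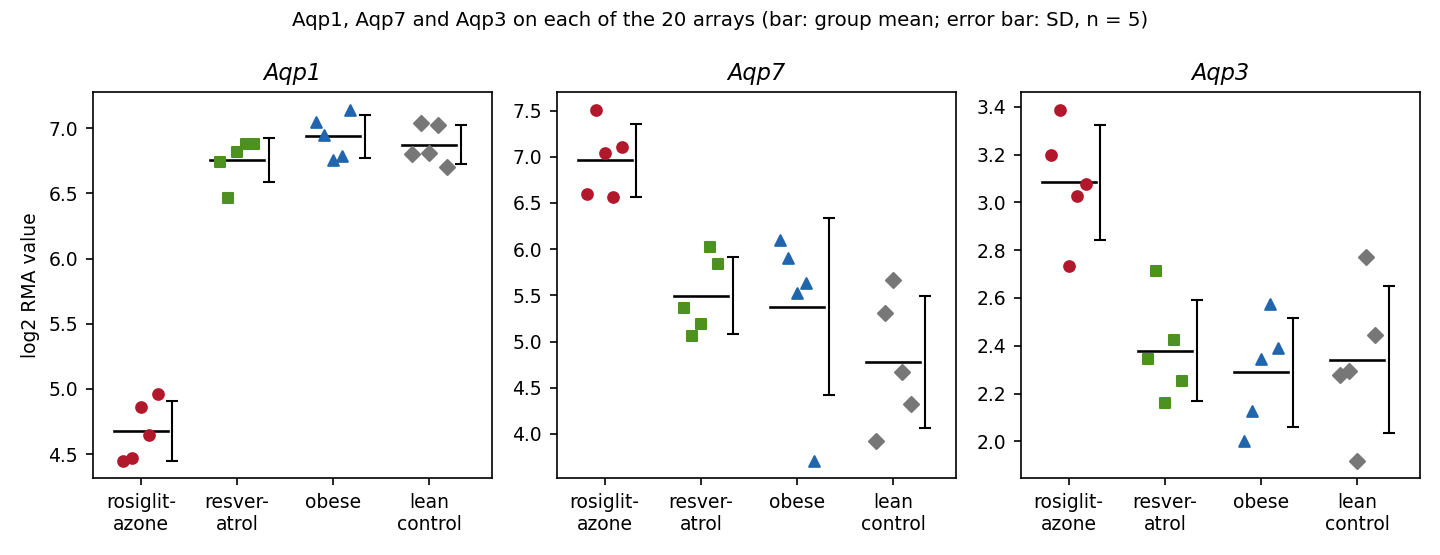
Log2 RMA value (y axis, separate scale per panel) of Aqp1, Aqp7 and Aqp3 on each of the 20 arrays, by group (x axis, left to right rosiglitazone, resveratrol, obese, lean control); bars are group means and error bars SD, n = 5. The rosiglitazone arrays lie lowest for Aqp1 (4.45 to 4.96) and highest for Aqp7 (6.56 to 7.51), and obese replicate 5 is the low point of Aqp7 (3.71).

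The contrast of the glycerol channel with the water channel is given as a difference of changes, because the probes of 2 genes respond differently and their levels cannot be set against each other. The change of Aqp7 minus the change of Aqp1 was 3.85 (SE 0.43) for rosiglitazone minus obese, a 14.4-fold shift of the ratio towards Aqp7. It was 3.54 against resveratrol and 4.38 against lean control muscle, with the same SE. Between the groups without rosiglitazone it was 0.30 for resveratrol minus obese, 0.53 for obese minus lean control and 0.84 for resveratrol minus lean control (SE 0.43 each).

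Per array, the same contrast relative to the obese mean was 3.71, 4.60, 3.74, 3.47 and 3.71 in rosiglitazone muscle. It was 0.18, 0.16, -0.06, 0.71 and 0.53 with resveratrol and 0.61, 0.52, 0.33, 0.41 and -1.87 in obese muscle. Lean control arrays had -1.32, -0.16, 0.42, -0.79 and -0.81. Every rosiglitazone array was shifted by more than 3 log2 units, and no other array by as much as 1 upward. With each group centred on its own mean, Pearson's r between the genes was 0.043 and Spearman's rho 0.13 over the 20 arrays, and r was -0.055 without the 2 arrays farthest out in Aqp1. Without obese replicate 5, r was 0.396 over 19 arrays, so the near-zero value rests on that array. These are descriptions of arrays that share their RMA step.

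**Figure D2:**
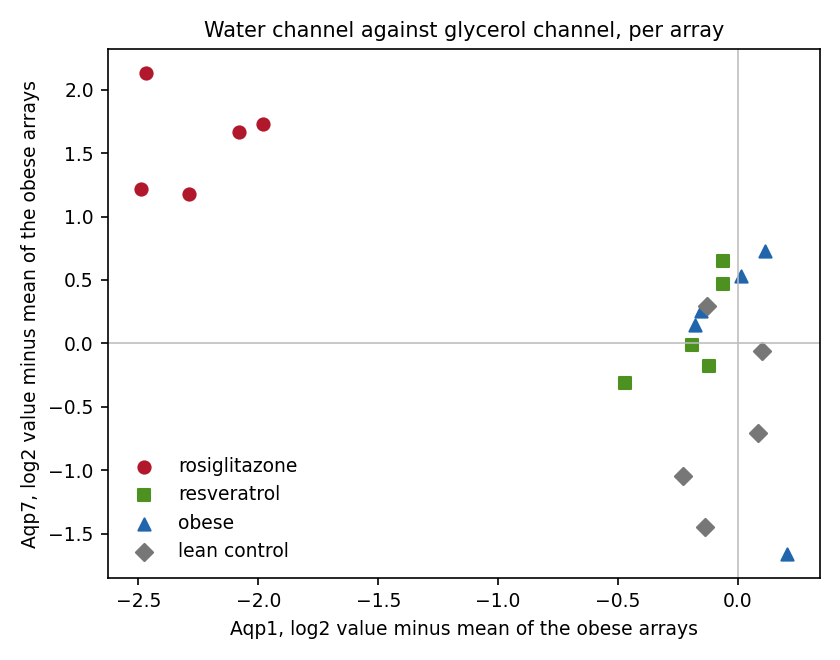
Each point is 1 array, with Aqp1 on the x axis and Aqp7 on the y axis, both as log2 value minus the mean of the 5 obese arrays; marker and colour give the group. The 5 rosiglitazone arrays sit at the upper left, lower in Aqp1 and higher in Aqp7 than all 15 others.

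Among the 9 other aquaporins measured, Aqp3 alone was called, and it rose with rosiglitazone. Aqp3 is the aquaglyceroporin next to Aqp7 on chromosome 5, known from kidney collecting duct and skin. Its log2 values were 3.20, 3.39, 2.74, 3.03 and 3.08 in rosiglitazone muscle and 2.0, 2.13, 2.35, 2.57 and 2.39 in obese muscle. Resveratrol arrays lay between 2.16 and 2.71, lean control arrays between 1.92 and 2.77, so 1 lean array reached the lowest rosiglitazone value while obese and resveratrol arrays did not.

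Rosiglitazone minus obese was 0.80 for Aqp3 (SE 0.15, adjusted p = 0.00395 by limma with Benjamini-Hochberg adjustment over all 14557 genes). The call, 1 higher and 0 lower of 9, stands beside 1.94% of all genes called in that comparison, 1.46% higher and 0.474% lower. Against resveratrol the difference was 0.71 (limma adjusted p = 0.0126), where 2.04% of all genes were called and 1.44% called higher. Against lean control it was 0.74 (limma adjusted p = 0.00574), where 3.5% were called and 1.67% called higher. Over 28 alternative settings its adjusted p in rosiglitazone minus obese lay between 0.00201 and 0.0161. With group means between 2.29 and 3.085, close to the array medians of 2.89 to 2.97, the signal of Aqp3 was dim and its fold may be understated. The nearest measured genes on the outer sides of the pair, Nfx1 beside Aqp7 and Ube2r2 beyond Aqp3, differed by 0.20 (limma adjusted p = 0.439) and -0.28 (limma adjusted p = 0.319) in rosiglitazone minus obese.

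The other 8 measured, Mip (also named Aqp0, the lens fibre channel), Aqp2 and Aqp6 of the kidney, Aqp5 of glands, Aqp8, the aquaglyceroporin Aqp9 of liver, Aqp11 and Aqp12a, were not called in any of the 6 comparisons. Their differences ran between -0.50 (Aqp2) and 0.25 (Aqp11) for rosiglitazone minus obese, and between -0.39 and 0.32 for resveratrol minus obese. For obese minus lean control they ran between -0.28 and 0.39. Before adjustment, limma's p fell below 0.05 for 3, 2 and 1 of the 9 in those 3 comparisons, and Aqp3 was among the 3 in rosiglitazone minus obese. The matching shares of the 14557 genes tested were 13.6%, 7.41% and 10.8%. All 9, Aqp3 included, had a mean over the 20 arrays under the lowest array median, so a change in them would be hard to see.

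Aqp8, a water and ammonia channel of gut and liver, came nearest to a call outside rosiglitazone. It averaged 1.69 in obese muscle and 1.33 in lean control muscle, a difference of 0.35 (SE 0.11, limma adjusted p = 0.245). It averaged 1.34 with resveratrol, which was -0.34 against obese (SE 0.11, limma adjusted p = 0.563). None of the 9 was called in resveratrol minus obese, where 0% of all genes were called and 7.41% had an unadjusted p under 0.05. In obese minus lean control and resveratrol minus lean control 0.00687% and 0.0137% of all genes were called.

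**Figure D3:**
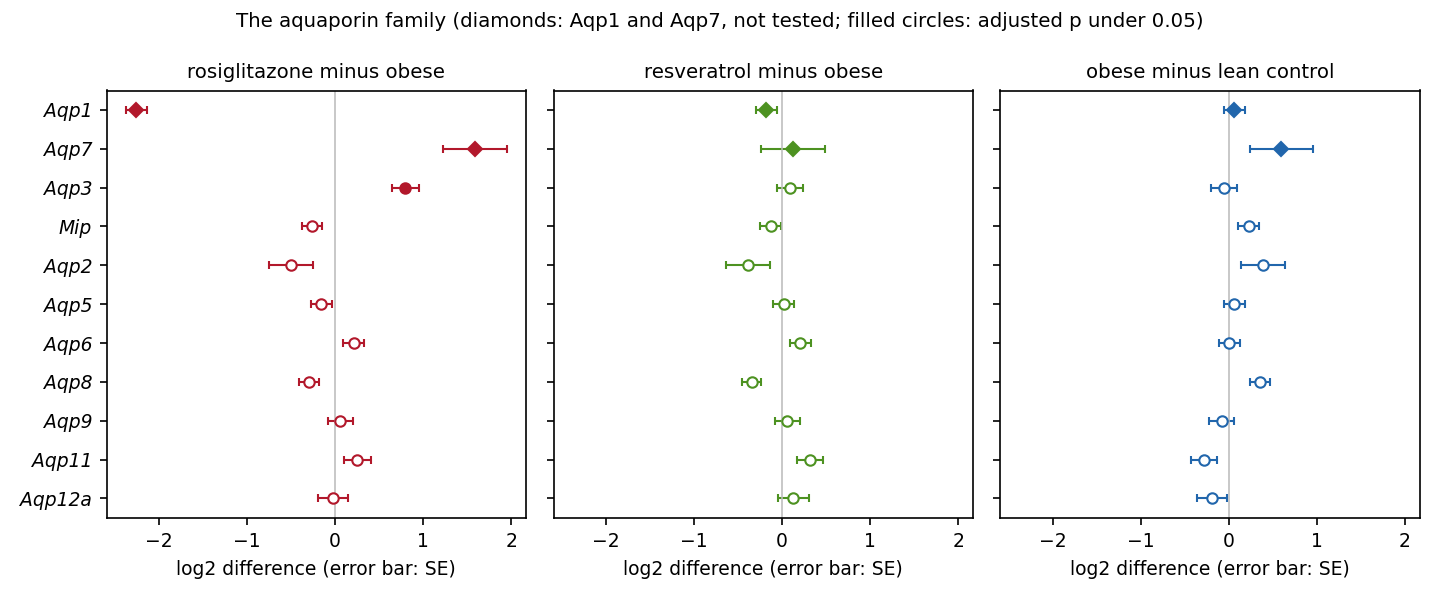
Log2 difference (x axis, error bars SE) of the 11 aquaporins measured, in rosiglitazone minus obese, resveratrol minus obese and obese minus lean control. Diamonds are Aqp1 and Aqp7, which were not tested; the 1 filled circle is Aqp3 (0.80, adjusted p = 0.00395), and open circles did not pass the test.

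Genes of glycerol release and use, the pathway that Aqp7 serves, were counted in the same test. This list and the lists below were chosen with earlier results of these data known, so their counts are a description. Of 24 listed genes 17 were measured, and 1 (5.88%) rose and 0 fell in rosiglitazone minus obese, where 1.94% of all genes were called. The riser was Plin1, the coat protein of fat droplets, at 4.17 in rosiglitazone and 3.58 in obese muscle (0.59, SE 0.15, limma adjusted p = 0.0469), which lost its call in 18 of 29 alternative settings, with adjusted p up to 0.146. Pnpla2, the first lipase of triglyceride breakdown, averaged 8.79 in rosiglitazone and 8.31 in obese muscle (0.48, limma adjusted p = 0.300). Gpd1, the cytosolic glycerol phosphate dehydrogenase, averaged 8.19 in rosiglitazone and 8.25 in obese muscle (limma adjusted p = 0.853). Pck1, an enzyme that supplies glycerol phosphate, averaged 3.19 in rosiglitazone and 2.87 in obese muscle (limma adjusted p = 0.610). The list median was 0.06, against -0.0048 over all genes. Lipe and Gk, the hormone-sensitive lipase and glycerol kinase, had no row of their symbol alone.

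Markers of fat cells and of capillary endothelium, which are among the cell types known to hold Aqp7, were counted in the same way. Of 16 adipocyte markers measured (22 listed), 8 rose and 0 fell in rosiglitazone minus obese, a median of 0.53, beside 1.46% of all genes called higher. Of those 8, 6 are not in the capillary list, and 4 were left without rosiglitazone replicate 4. Adipoq, the fat cell hormone adiponectin, averaged 5.33 in rosiglitazone and 3.82 in obese muscle (1.51, SE 0.32, limma adjusted p = 0.0109). Cidec, a fat droplet protein, averaged 3.66 in rosiglitazone and 2.35 in obese muscle (limma adjusted p = 0.00281). Npr3, the natriuretic peptide clearance receptor, rose by 1.26, Lep, leptin, by 0.83 and Trarg1, a partner of glucose transporter traffic, by 0.67. Lep lost its call in 2 of 28 alternative settings and Trarg1 in 8 of 29. The mean over the 16 markers lay between 4.445 and 4.81 on rosiglitazone arrays and between 3.91 and 4.13 on obese arrays, and none of the markers was at 0. In bulk muscle, more cells of a type and more RNA per cell cannot be told apart.

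The capillary endothelium list moved in both directions. Of 25 markers measured (31 listed), 11 rose and 2 fell in rosiglitazone minus obese, a median of 0.39, beside 1.46% of all genes called higher and 0.474% lower. The risers included Rbp7, a retinoid binding protein (4.17, SE 0.29), Cd300lg (2.91, SE 0.21), the fatty acid binding protein Fabp4 (1.51), the lipoprotein lipase anchor Gpihbp1 (1.2) and the clotting protein Vwf (0.93), with limma adjusted p up to 1.77e-05. Ace, the angiotensin-converting enzyme on capillary walls, fell by 1.32 (limma adjusted p = 0.000151), and so did Cd34, a surface sialomucin, by 0.86 (limma adjusted p = 0.0232, lost in 6 of 29 alternative settings). Cdh5, the cadherin of endothelial junctions, averaged 7.23 in rosiglitazone and 7.19 in obese muscle (limma adjusted p = 0.893). Aqp1, also an endothelial gene, was lower while the mean of the list ran higher, at 5.76 to 5.90 on rosiglitazone arrays against 5.12 to 5.32 on obese arrays. The means of both lists lay apart between these groups, so the content of either cell type and the treatment cannot be told apart here.

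Red cells are another known source of Aqp1. Of 12 erythroid markers measured (20 listed), 0 rose and 1 (8.33%) fell in rosiglitazone minus obese, beside 0.474% of all genes called lower. The gene that fell was Tfrc, the transferrin receptor, which all growing cells use (-1.23, SE 0.30, limma adjusted p = 0.0301, lost in 9 of 29 alternative settings). Slc4a1, the red cell anion exchanger, averaged 3.76 in rosiglitazone and 3.21 in obese muscle (limma adjusted p = 0.307). The mean of the list was 3.16 to 3.86 on rosiglitazone arrays and 3.31 to 3.60 on obese arrays, which overlapped. Hbb and Alas2 had no row of their symbol alone.

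Genes of water balance and of acid and bicarbonate handling, which work beside aquaporins, were also counted. Of 17 osmotic response and Aqp4 anchoring genes measured (25 listed), 1 rose and 1 fell in rosiglitazone minus obese (11.8%, beside 1.94% of all genes). Akr1b1, the aldose reductase that makes the osmolyte sorbitol, fell by 0.51 (SE 0.10, limma adjusted p = 0.00866). Lrrc8a, the core of the volume-regulated anion channel, rose by 0.43 (SE 0.11, limma adjusted p = 0.0479), which was lost in 21 of 29 alternative settings. Nfat5, the transcription factor of osmotic stress, averaged 5.44 in rosiglitazone and 5.53 in obese muscle (limma adjusted p = 0.733).

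Of 17 carbonic anhydrase and bicarbonate transport genes measured (21 listed), 2 rose and 0 fell (11.8%, beside 1.94% of all genes). Car5b, the mitochondrial carbonic anhydrase, rose by 1.26 (SE 0.20, limma adjusted p = 0.000725), and Car4, the form anchored on capillary walls, by 0.64 (SE 0.14, limma adjusted p = 0.011). The list medians of -0.056 and -0.012 were close to that of all genes.

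Known PPAR targets rose with rosiglitazone, in part. Of 28 measured (34 listed, Aqp3 among them and Aqp7 left out), 12 rose and 0 fell in rosiglitazone minus obese (42.9%, beside 1.94% of all genes), a median of 0.38, and 8 of the 28 are shared with the adipocyte or capillary list. This list too was chosen with earlier results of these data known, so its share of calls is a description. Scd, the stearoyl desaturase, rose by 4.32 (SE 0.43), the uncoupling protein Ucp2 by 1.21 and the liver X receptor Nr1h3 by 0.85, with limma adjusted p up to 0.000725. The capillary, adipocyte, PPAR target, glycerol and erythroid lists were also counted against the other groups, with the same rosiglitazone arrays. Against resveratrol, 11 capillary markers rose and 2 fell, 4 adipocyte markers rose and 0 fell, and 7 PPAR targets rose and 1 fell, beside 2.04% of all genes called. In that comparison 0 of 17 glycerol genes were called, and 1 of 12 erythroid markers, Tfrc, fell. Against lean control, 13 capillary markers rose and 2 fell, while 8 adipocyte markers and 11 PPAR targets rose and 0 of either fell, beside 3.5% of all genes called. There 2 of 17 glycerol genes rose and 0 fell, Plin1 (0.80, limma adjusted p = 0.00398) and Pnpla2 (0.80, limma adjusted p = 0.0293). Of 12 erythroid markers 1 rose and 0 fell, Slc4a1 (1.06, limma adjusted p = 0.0126). Without obese replicate 5, the calls in rosiglitazone minus obese numbered 10 for the capillary, 6 for the adipocyte and 10 for the PPAR target list, and 0 for the glycerol and erythroid lists. Over the 168 genes of all lists, limma called 0 in resveratrol minus obese, in obese minus lean control and in resveratrol minus lean control. In these comparisons 16, 31 and 29 of the 168 had an unadjusted p under 0.05, beside 7.41%, 10.8% and 8.63% of all genes.

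**Figure D4:**
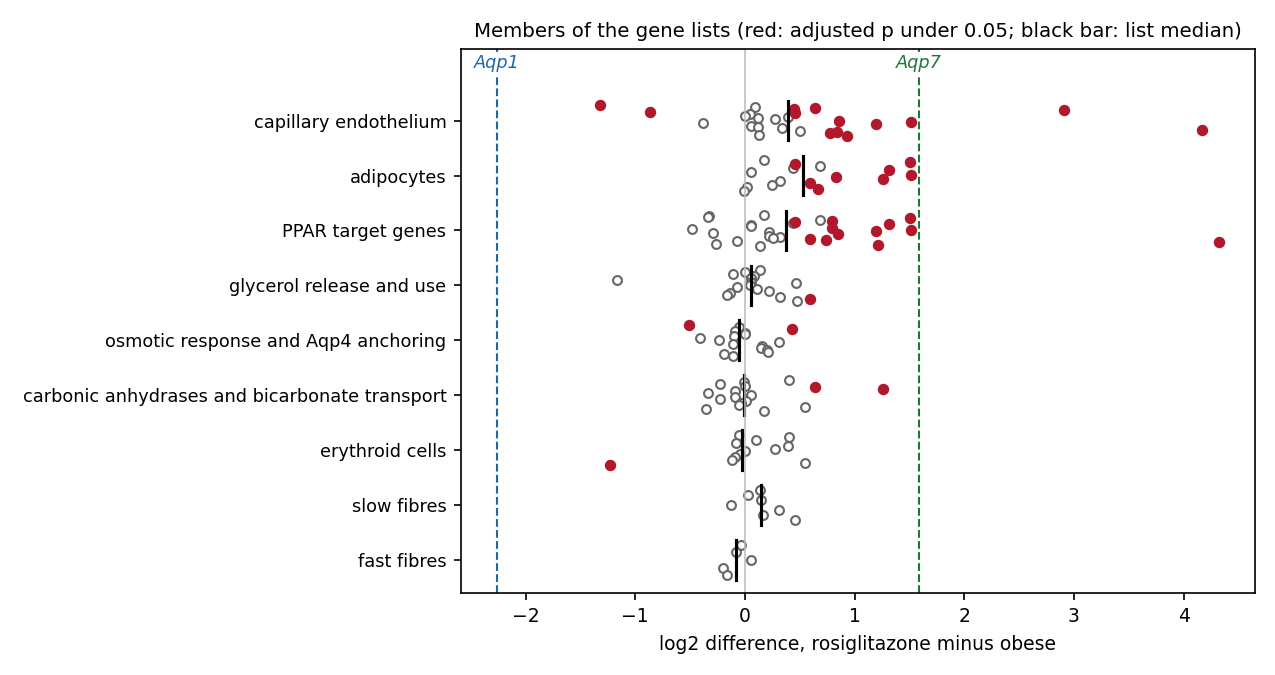
Each circle is 1 gene of a list (y axis) at its log2 difference, rosiglitazone minus obese (x axis); red circles passed the test, black bars are list medians, and dashed lines mark Aqp1 (-2.26) and Aqp7 (1.59). Aqp7 lies just above the highest member of the adipocyte list (1.51) and Aqp1 below all members of every list shown.

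The likeness of other genes to Aqp1 was measured over the 20 arrays among genes at or above the median level. The highest Pearson r were those of Ace (0.917), Dgke, a diacylglycerol kinase (0.914), Dlat, a subunit of pyruvate dehydrogenase (0.884), and Gfm1, a mitochondrial translation factor (0.862). The lowest were those of Ceacam1, an adhesion protein (-0.982), Rbp7 (-0.949), Mgst1, a microsomal glutathione transferase (-0.948), and the lipogenic factor Thrsp (-0.937). Over the 15 arrays without rosiglitazone the first 4 fell to between 0.11 (Ace) and 0.779 (Gfm1), and the last 4 lay between -0.482 and -0.068. Dlat and Gfm1 were not called in rosiglitazone minus obese (limma adjusted p = 0.104 and 0.112).

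With group means removed, other genes led. The highest were Abhd2, a lipid hydrolase (0.800), Tp53inp1 (0.786) and Adamtsl5 (0.767), and the lowest the repressor Zeb1 (-0.758), the deacetylase Hdac4 (-0.752) and Mstn, myostatin (-0.749). None of these 6 was called in rosiglitazone minus obese. They were picked as the extremes among 7279 genes over 20 arrays, so the size of their r is a description and was not tested. Of the lists counted, the slow fibre genes had the highest median r with Aqp1, 0.390, against 0.021 over all genes. The mural and smooth muscle list came next, at 0.288. All 7 slow fibre genes had a positive r, as had 7714 of 14556 genes, whose 5th and 95th percentiles were -0.415 and 0.449. For Myh7 r was 0.473, and 0.382 without obese replicate 5.

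Likeness to Aqp7 was measured in the same way, over all arrays and within groups. Over the 20 arrays its highest r were those of Cd36, the fatty acid translocase (0.902), Fabp4 (0.886), Prodh, the proline dehydrogenase (0.875), and Tek, the endothelial angiopoietin receptor (0.873). With group means removed these were 0.736, 0.690, 0.673 and 0.730, and without obese replicate 5 they were 0.664, 0.748, 0.538 and 0.738. Rbp7 had 0.739 within groups, and 0.596 without that array. Within groups r with Aqp7 was 0.006 for Adipoq, -0.171 for Cidec, 0.236 for Plin1 and 0.0023 for Vwf. Without obese replicate 5 these were 0.239, -0.123, 0.139 and -0.177.

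The lowest r with Aqp7 over the 20 arrays were those of Lnpk, a protein of endoplasmic reticulum junctions (-0.891), Col15a1, a basement membrane collagen (-0.869), Cd34 (-0.861) and Pdf, a mitochondrial deformylase (-0.849). With group means removed these were -0.768, -0.625, -0.595 and -0.716, and without obese replicate 5 they were -0.592, -0.385, -0.301 and -0.706. Within groups the highest were Eci2, an isomerase of fatty acid oxidation (0.781), Tmem250 (0.765) and the scaffold Nedd9 (0.762), and the lowest Lnpk (-0.768), Aph1a, a gamma-secretase subunit (-0.738), and Prrc2a (-0.737). Without obese replicate 5 these were 0.625, 0.631 and 0.725 for the highest and -0.592, -0.559 and -0.410 for the lowest. These genes too were picked as extremes among 7279 genes, so the size of their r was not tested. The PPAR target list had a median within-group r of 0.335 with Aqp7, with 23 of 28 positive. Over all genes the median was -0.020, with 6861 of 14556 positive. The glycerol list had 0.213, the adipocyte list 0.079 and the capillary list 0.041 with Aqp7. With Aqp1 the PPAR target list had a median of 0.264, with 22 of 28 positive. Over all genes that median was 0.021, with 7714 of 14556 positive. The list medians were not repeated without obese replicate 5. All these r describe the same 20 arrays.

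**Figure D5:**
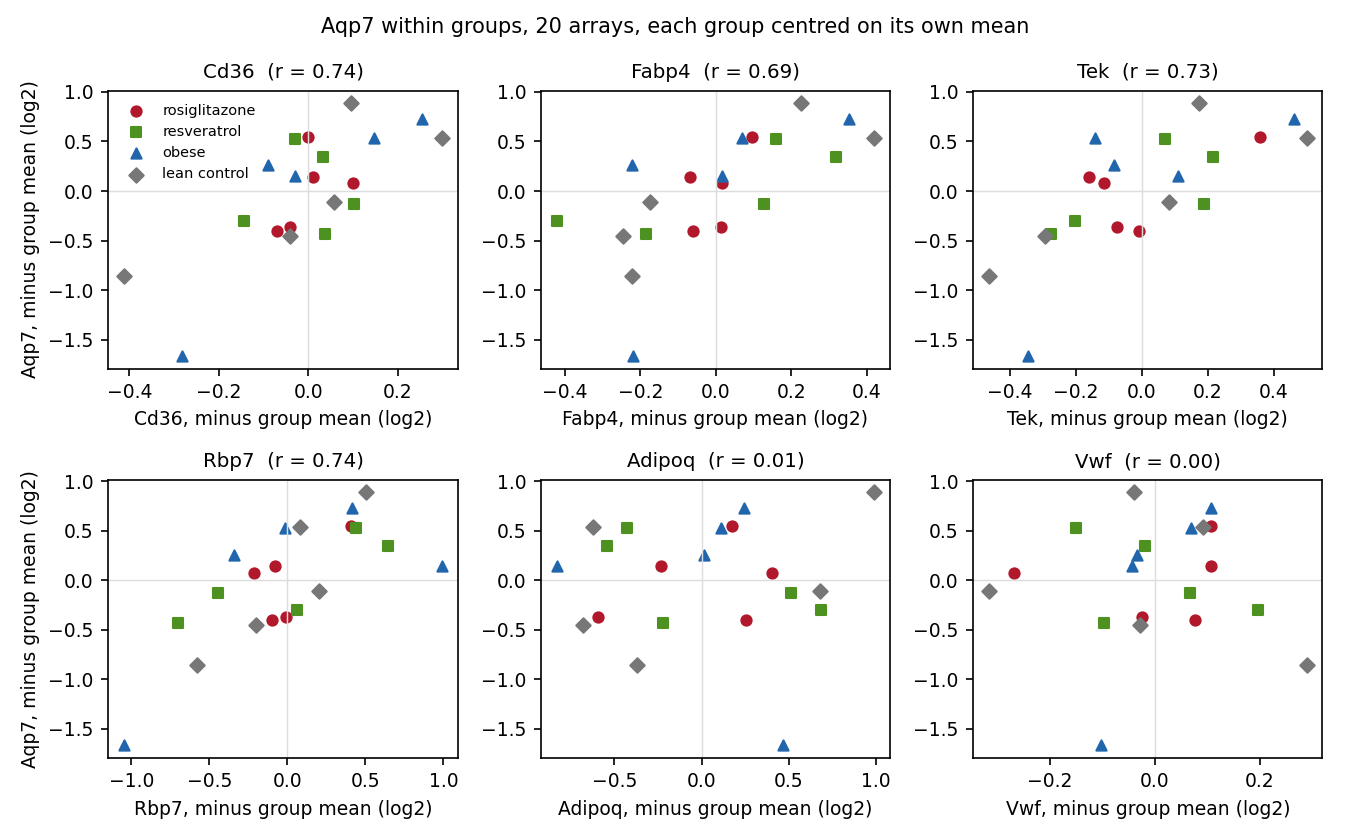
Aqp7 (y axis) against Cd36, Fabp4, Tek, Rbp7, Adipoq and Vwf (x axes), each as log2 value minus the mean of its own group, 1 point per array, marker and colour by group. Points rise to the right for Cd36, Fabp4, Tek and Rbp7 (r = 0.69 to 0.74) and r was 0.01 for Adipoq and 0.00 for Vwf. The capillary list, which holds all of these but Adipoq, had a median r of 0.041, with 15 of 25 positive. Its lowest was -0.595 (Cd34). The lowest point in every panel is obese replicate 5.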

How the data were processed

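Per the labels, 100 ng of total RNA from each muscle was labelled and hybridised to an array strip. The authors deposited log2 values made with RMA, as their processing notes name it; its version and the strip layout are not given in the sources used here, so a strip could not be tested as a batch. The table held 36685 rows, of which 14824 had 1 gene symbol in the platform annotation, 829 several and 21032 none. A gene with several rows was represented by its brightest row, which left 14557 genes. RMA equalises the arrays, so a shift shared by all genes cannot be seen.

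Differences and standard errors came from 1 limma 3.58.1 fit (R 4.3.3) of the 4 group means, two-sided, with Benjamini-Hochberg adjustment over all genes of a comparison and calls at an adjusted p under 0.05. The fit was tested on simulated data. Contrasts of Aqp7 with Aqp1 used per-array differences and pooled SD. Array number limits the precision.

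The members, lists and named genes were chosen with earlier results of these data known. The text names Aqp1, Aqp7, all other aquaporins measured, the genes most and least like each of them (4 each way over all arrays, 3 with group means removed, provisional symbols left out), up to 6 called members of each list by smallest p, and a set of marker genes. The sequences are RefSeq's. Where a p or count of calls is given without another tool named, it is limma's. Replicate numbers pair no samples, as checked in the closing section.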

Additional observations from a re-analysis of the deposited data

Results flagged for a closer look

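Over the 11 aquaporins and 4 groups, 44 groups of 5 arrays were searched for an array that stood apart from its group, and 2 were found, where chance gives about 1 in 20 groups. Aqp7 was 3.71 in obese replicate 5, and the gap to the next array was 0.758 of the group's range (critical value 0.71). Aqp11 was 1.77 in resveratrol replicate 4, with a gap of 0.714 of the range.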

How the results depend on the processing

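Over 29 other settings (trend and robust weighting, brighter genes only, other treatments of rows, 2 groups alone, array weights, centring, quantile normalisation, the replicate block and each array left out) the 6 differences of Aqp1 and of Aqp7, and over 24 of them the 6 differences between them, moved by less than the spread within groups. Leaving out 1 array gave -2.33 to -2.20 for Aqp1 and 1.17 to 1.77 for Aqp7 in rosiglitazone minus obese. Aqp7 in resveratrol minus obese ran from -0.29 to 0.30 and in obese minus lean control from 0.38 to 1.01. Aqp3 kept its calls and no other aquaporin gained one in 28 alternatives; none of the 9 was bright enough for the brighter genes alone. Of 23 list genes called and named, 15 were called throughout, and Gpd1 changed sign without rosiglitazone replicate 5 (0.0075, range -0.13 to 0.0075 with 1 array left out). The adipocyte list had 8 calls, and 5 with all rows, with 2 groups alone and with the replicate block, and 4 to 8 with 1 array left out (4 without rosiglitazone replicate 4). The causes of these changes were not tested.

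Covariates added after seeing the data moved the rosiglitazone differences. With the adipocyte mean, Aqp1 was -2.63, -2.39 and -2.59 against obese, resveratrol and lean control (SE 0.293, 0.255 and 0.311). Aqp7 was then 0.68, 0.70 and 1.21 (SE 0.898, 0.779 and 0.952). With the capillary mean, Aqp1 was -2.77, -2.59 and -2.74 (SE 0.303, 0.304 and 0.318). Aqp7 was then -0.27, -0.40 and 0.22 (SE 0.887, 0.89 and 0.93). Without a covariate the SE of Aqp7 was 0.361, so its values with a covariate are imprecise. Both means lie apart between those groups, so covariate and group overlap by construction. The Aqp1 differences grew in size and those of Aqp7 shrank in size. Neither shift separates cell content from treatment.

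Counts over all genes were less stable. Rosiglitazone minus obese gave 282 calls, 181 with all rows and 192 to 301 with 1 array left out. Its highest count over the 29 settings was 403. Rosiglitazone minus resveratrol gave 297, at most 427 over the 29 settings. It gave 161 with all rows, 177 with 2 groups alone and 177 to 288 with 1 array left out (fewest without resveratrol replicate 2). Rosiglitazone minus lean control gave 510, at most 743 over the 29 settings. It gave 318 with all rows and 325 to 516 with 1 array left out (fewest without lean control replicate 1). Obese minus lean control gave 1 call, 24 with trend and robust weighting, 5 among brighter genes, 8 with array weights, 0 with all rows or 2 groups alone, and 0 to 24 with 1 array left out (24 without obese replicate 5). Resveratrol minus lean control gave 2, 4 with trend and robust weighting, 0 among brighter genes, with all rows or 2 groups alone, 1 with the replicate block, and 0 to 5 with 1 array left out.

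Same-numbered samples of different groups did not deviate together (median correlation -0.0145 over 30 pairs, against 0.0055 over 120 differently numbered pairs), so the numbers name samples only. With the replicate block, rosiglitazone minus obese was -2.26 for Aqp1 and 1.59 for Aqp7.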

Other observations

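Lists of other cell types, in rosiglitazone minus obese, were counted by limma, beside 1.94% of all genes called. Of 8 mural and smooth muscle markers 1 rose, Tagln, a smooth muscle actin binder (0.69, adjusted p = 0.024, lost in 7 of 29 alternative settings). Of 12 fibroblast markers 1 fell, Col3a1, a fibrillar collagen (-0.73, adjusted p = 0.0439, lost in 19 of 29 alternative settings). None of 6 Schwann cell, 9 macrophage and leukocyte, 7 slow fibre and 5 fast fibre markers was called. In rosiglitazone minus lean control, 9 of the 12 fibroblast markers fell, a median of -0.74, where 3.5% of all genes were called. The list median was also below that of all genes without rosiglitazone. It was -0.39 in obese minus lean control and -0.30 in resveratrol minus lean control, with 0 markers called, beside 0.00687% and 0.0137% of all genes. Within groups the fibroblast markers had a median r of -0.159 with Aqp7 and 0.070 with Aqp1.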
